A study of Mus musculus with 16 samples.

Results

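The nuclear-encoded subunits of oxidative phosphorylation were followed in mouse striatum, in knockout and wild-type mice with or without an activated designer receptor in astrocytes. Oxidative phosphorylation runs in the inner mitochondrial membrane. Complex I takes electrons from NADH and complex II from succinate, complex III passes them on from ubiquinol to cytochrome c, complex IV reduces oxygen, and complex V uses the resulting proton gradient to make ATP. Most subunits are encoded in the nucleus and imported, a small set is encoded by the mitochondrial genome, and neurons depend heavily on the pathway. The genes were chosen by symbol alone: names beginning Nduf with a, b, c, s or v, Sdh, Uqcr, Cox4 to Cox8 and Atp5, without pseudogenes and clone names. This rule took 82 of the 48795 genes of the count table. Of these, 81 passed the filter on low counts, together with 20825 genes in all. They comprise 36 genes of complex I, 4 of complex II, 8 of complex III, 16 of complex IV and 17 of complex V. The remaining gene, Cox8c, a testis isoform of a small complex IV subunit, had 0 counts in every library, which allows up to 0.023 CPM (library-scaled counts, per 1e6). The rule works on names: it also takes Atp5s and Atp5sl, which are not core subunits of the ATP synthase, and it puts Ndufa4 with complex I, although its protein is now assigned to complex IV.

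Each of 4 groups held 4 libraries of ribosome-depleted striatal RNA. KO_hM4D were Sapap3 knockout mice injected in the striatum with an adeno-associated virus for hM4Di, an inhibitory (Gi-coupled) designer receptor made in astrocytes. KO_tdT were knockout mice given a virus for the fluorescent protein tdTomato instead. WT_hM4D and WT_tdT were wild-type mice with the same 2 viruses. All 4 groups are described as treated with deschloroclozapine, the agonist of hM4Di, so receptor, agonist-driven signalling and viral payload are measured together in the hM4D groups. The labels used here state neither age nor sex, nor the promoter that drives the receptor, nor whether each library is 1 mouse. p-values therefore measure the spread between these libraries. For WT_hM4D 2, 3 and 4 the source field names the knockout, so they were placed by their titles, which the genotype field matches.

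Library totals ran from 129149745 to 180655067 counts. Dlgap3, the current symbol of Sapap3, had 152.9 to 166.6 CPM in the 8 knockout libraries and 294.4 to 437 CPM in the 8 wild-type libraries, so the genotypes did not overlap. Markers of striatal projection neurons (15 genes, mean log2 CPM per library of 7.48 to 8.33) and astrocytes (11 genes, 7.25 to 7.46) were present throughout. Markers of cortical excitatory neurons (6 genes) averaged 5.56 to 6.87 and those of oligodendrocytes (8 genes) 8.03 to 9.25. Several libraries stood apart. KO_tdT 3, WT_hM4D 2, WT_hM4D 4 and WT_tdT 4 held Xist as well as transcripts of Y-linked genes, each at 5% or more of its highest library. KO_tdT 4 lay just under that line, with Xist at 60.2% and Y-linked transcripts at 4.89%, and is kept in the fit without such libraries. Further, all 4 KO_hM4D libraries were of female type, and KO_tdT 1 and 2 were of male type. Of the wild-type libraries, WT_tdT 1 was of female type, and WT_hM4D 1 and 3 and WT_tdT 2 and 3 were of male type. In these, Xist stood at 4.18% in WT_hM4D 1, 2.63% in WT_hM4D 3, 1.32% in WT_tdT 2 and 4.17% in WT_tdT 3. The 6 thalamic neuron markers averaged 1.06 to 3.93 on the log2 CPM scale in KO_hM4D, 1.07 to 4.42 in KO_tdT, 0.86 to 2.01 in WT_hM4D and 0.33 to 0.8 in WT_tdT. Bulk RNA cannot tell fewer cells of a type from less RNA per cell.

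In this tissue the subunit genes were abundant and even. Together they took 0.852 to 0.99% of all counts in a library, while the mitochondrial genome took 10.05 to 12.3%. Compared per length, in CPM per kb of exon union, the highest level was that of Cox8a, the ubiquitous isoform of the smallest complex IV subunit, at 408.3 CPM per kb. Cox6a1, another complex IV subunit, followed at 287.5 CPM per kb, then Atp5a1 and Atp5b, the alpha and beta subunits of the catalytic head of ATP synthase, at 286.7 and 262.4 CPM per kb. In complex I the level per kb ran from 138.3 for Ndufb9 to 6.27 for Ndufb2, both accessory subunits of the membrane arm. In complex II it ran from 86.3 for Sdha, the flavoprotein that oxidises succinate, to 18.6 for Sdhc, a membrane anchor. In complex III it ran from 147 for Uqcr11 to 19.7 for Uqcrq, both small subunits, with Uqcrfs1, the Rieske iron-sulphur protein, at 48.3. The lowest values in complex V were those of Atp5s (4.94) and Atp5l (6.74). A level per kb depends on the annotated exons, and genes with long rarely used exons read low on this scale.

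**Figure D1:**
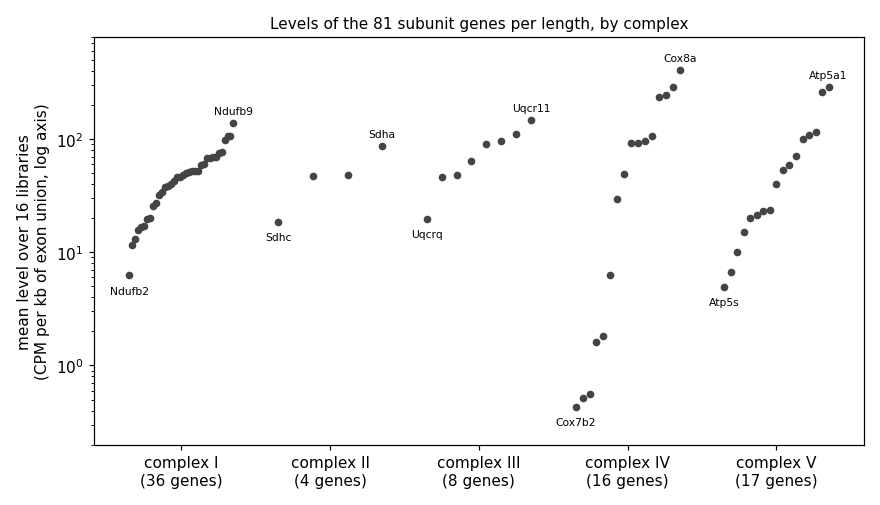
Mean level of each of 81 subunit genes over 16 libraries, in CPM per kb of exon union on a log axis, by complex, with 1 point for each gene and the highest and lowest of each complex named. Most genes lie between 10 and 150 CPM per kb, and the low tail of complex IV holds the tissue-restricted isoforms, down to 0.431 for Cox7b2.

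Complex IV has isoforms that other tissues prefer, and in striatum these were minor. Per length, Cox4i2, the lung-enriched isoform of subunit 4, made up 0.547 to 1.03% of Cox4i1 plus Cox4i2 over the 16 libraries. Cox6a2, the heart and muscle isoform of subunit 6a, made up 1.7 to 2.74% beside Cox6a1, and Cox7a1, the heart and muscle isoform of subunit 7a, made up 0.994 to 2.16% beside Cox7a2. The testis-enriched Cox6b2 made up 0.126 to 0.384% beside Cox6b1, and Cox7b2, likewise a testis isoform, 0.318 to 0.673% beside Cox7b. Cox8b, the muscle isoform of subunit 8, made up 0.0811 to 0.208% beside Cox8a. These 6 minor isoforms were the only tested members below a mean of 10 CPM. The 3 genes that encode the same mature c subunit of the ATP synthase rotor were all in use: per length, Atp5g3 gave 49.7 to 53.2%, Atp5g1 27.1 to 31.1% and Atp5g2 17.6 to 20.2% of their sum.

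Promoter motifs, which the naming rule did not use, were looked up for the members. The factors NRF1, GABP (an ETS factor) and YY1 are known to act on many nuclear genes of the respiratory chain. RefSeq windows on GRCm38.p6 of 300 bases, 250 before to 50 after the start, were at hand for 65 of the 82 genes and for 27025 genes in all. A gene with more than 1 window was counted once. On either strand, the NRF1 core CGCATGCG occurred for 9 of the 65 genes (13.8%), against 2.07% of all genes with a window. The YY1 motif AAGATGGC occurred for 9 (13.8%) against 3.19%, and the ETS motif CCGGAAG for 16 (24.6%) against 9.93%. At least 1 of these 3 motifs was found for 28 of the 65 genes, and the share over all genes was not counted. The letters TATAAA, of the kind found in TATA boxes, were found for 7 genes (10.8%) against 15.7% of all. These are matches of letters, not measured binding. The NRF1 core is a shorter form of letters searched earlier, chosen after matches had been seen, so its share is a description and not a test. The windows of all genes were not matched to the members in level or base content. The stretches with the NRF1 core are printed here because its share had the greatest ratio to that of all genes with a window. Each is read 5′ to 3′ on the gene's strand, with 10 bases on either side (9 before it in Atp5l, at the window's edge) and the core in capitals. Counted from the annotated start, the core begins at bases from -241 (Atp5l) to -5 (Uqcr11), and in Uqcrc1 at base 32 of the transcript.
Atp5g2, chr15:102671071-102671098, minus strand: gctccggccgCGCATGCGcagagccttc
Atp5j, chr16:84835106-84835133, minus strand: ggccagaataCGCATGCGtacagtgcag
Atp5k, chr5:108434431-108434458, minus strand: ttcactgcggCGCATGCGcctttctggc
Atp5l, chr9:44920966-44920992, minus strand: aaccaataaCGCATGCGcatttccccc
Cox6a1, chr5:115349102-115349129, minus strand: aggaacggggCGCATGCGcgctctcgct
Ndufa11, chr17:56717693-56717720, plus strand: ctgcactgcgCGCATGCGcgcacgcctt
Ndufa8, chr2:36049330-36049357, minus strand: tcgctggagaCGCATGCGcagatggtac
Uqcr11, chr10:80406809-80406836, minus strand: atcgccttcaCGCATGCGctatacgtct
Uqcrc1, chr9:108936669-108936696, plus strand: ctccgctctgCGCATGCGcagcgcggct

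Replicates within a group varied little. The within-group coefficient of variation had a median of 6.54% over the 81 genes, from 2.95% for Sdha to 27.7% for Cox8b. For the 75 members at 10 CPM or more it had a median of 6.17%, beside 6.68% for the 9580 tested genes at that level, and its highest value was 17.9%, for Atp5e, which encodes the epsilon subunit of the ATP synthase central stalk. Summed over all 81 genes, the level was 9084, 9089, 8993 and 9187 CPM in KO_hM4D, 8795, 9695, 9574 and 9666 CPM in KO_tdT, 9330, 8476, 9774 and 9230 CPM in WT_hM4D, and 9221, 8943, 9044 and 8885 CPM in WT_tdT. The 4 groups overlapped, with means of 9088 ± 79.2, 9433 ± 428, 9202 ± 539 and 9023 ± 147 CPM in that order (SD, n = 4 each). In 2 of these groups 1 library was low for most members. KO_tdT 1 was the lowest of its group for 69 of 81 members (85.2%, against 25.6% of all genes tested), and WT_hM4D 2 was the lowest of its group for 57 (70.4%, against 34.4%). WT_hM4D 3 was the highest of its group for 52 (64.2%, against 20.9%).

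Both libraries were the lowest of their groups in each complex. Complex I genes summed to 2545 CPM in KO_tdT 1, against 2782 to 2851 CPM in the other KO_tdT libraries. Complex V genes summed to 3284 CPM there, against 3551 to 3571 CPM. In WT_hM4D 2 complex I genes summed to 2473 CPM and complex V genes to 3087 CPM, against 2688 to 2862 CPM and 3465 to 3643 CPM in the rest of that group. WT_hM4D 2 is 1 of the libraries with both Xist and Y-linked transcripts, and KO_tdT 1 is not; what part this has in the levels was not tested.

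**Figure D2:**
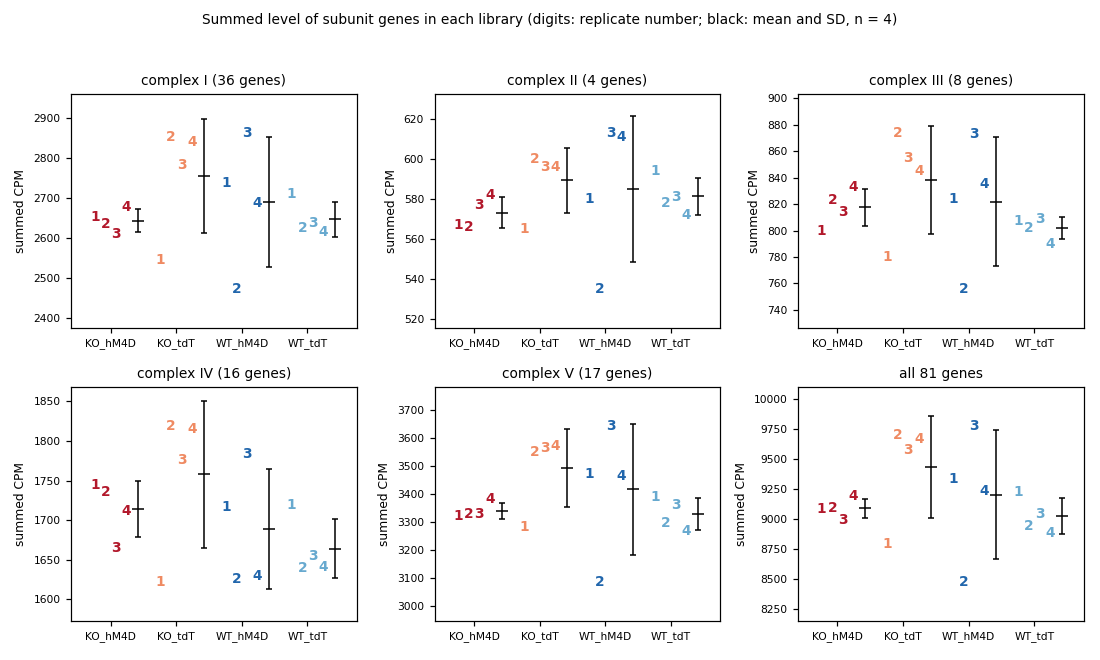
Summed CPM of the subunit genes of each complex, and of all 81, in each of 16 libraries; a digit is the replicate number at its value, and black marks give mean and SD over the 4 libraries of a group (the axes do not start at 0). KO_tdT 1 and WT_hM4D 2 lie at the bottom of their groups in each panel, 8795 and 8476 CPM for all genes, while KO_hM4D libraries lie between 8993 and 9187.

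A second pattern ran across genes rather than through all of them together. On the first principal component of the members' log2 CPM, which held 39% of their variance, KO_hM4D 3, KO_hM4D 4, WT_hM4D 3 and WT_hM4D 4 scored 1.12, 1.25, 1.31 and 1.10. The other 12 libraries, among them KO_hM4D 1 and 2 and WT_hM4D 1 and 2, scored from -0.88 to 0.04. These 4 libraries were picked out by these values, so what follows describes them and is not a test. All 4 lay above the other 12 libraries for 12 members (14.8%, against 2.11% of genes tested) and below them for 5 (6.17%, against 2.01%). The gap was widest for Atp5e, whose gene lies at chr2:174461072-174464105 on the minus strand (GRCm38). Atp5e had 32.5, 30.8, 45.2 and 47.1 CPM in KO_hM4D, 29.5, 34.9, 31.1 and 34.2 CPM in KO_tdT, 31.6, 29.1, 46.2 and 44.8 CPM in WT_hM4D, and 32, 31.7, 29.2 and 29.7 CPM in WT_tdT. In both hM4D groups it was replicates 3 and 4 that were high. Replicates 1 and 2 lay within the range of the tdTomato libraries, or just under it for WT_hM4D 2 (29.1 CPM, beside 29.2 CPM in WT_tdT 3).

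The opposite pattern was clearest in Ndufa12, an accessory subunit of complex I at chr10:94198720-94221443 on the plus strand. It had 81.2, 80.3, 61.5 and 61.4 CPM in KO_hM4D, 79.1, 87.2, 85.5 and 80.3 CPM in KO_tdT, 80.2, 72.7, 66.2 and 65.4 CPM in WT_hM4D, and 80.5, 74.3, 77.7 and 78 CPM in WT_tdT. Beside Atp5e, the 4 libraries were the highest 4 for Ndufa2, Ndufa4, Ndufa7 and Ndufc1 of the complex I names, Sdhd (a membrane anchor of complex II), Uqcrfs1, Uqcrq and Uqcr10 of complex III, Cox5a of complex IV, and Atp5g3 and Atp5k of complex V. They were the lowest 4 for Ndufa5, and for Cox6a2, Cox6b1 and Cox6c of complex IV, beside Ndufa12. The 13 protein-coding genes of the mitochondrial genome, which encode the remaining core subunits, averaged 6.72 to 6.97 log2 CPM in these 4 libraries, below the 7.14 to 7.44 of the other 12. The astrocyte markers averaged 7.29 to 7.42 in the 4 and 7.25 to 7.46 in the 12. The labels used here name no batch, and both hM4D groups contain 2 of the 4 libraries, so the counts and medians of each comparison that uses an hM4D group are also given without them, as are many of the genes named there. That alternative was chosen after these values were seen, and it leaves 2 libraries in each hM4D group.

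**Figure D3:**
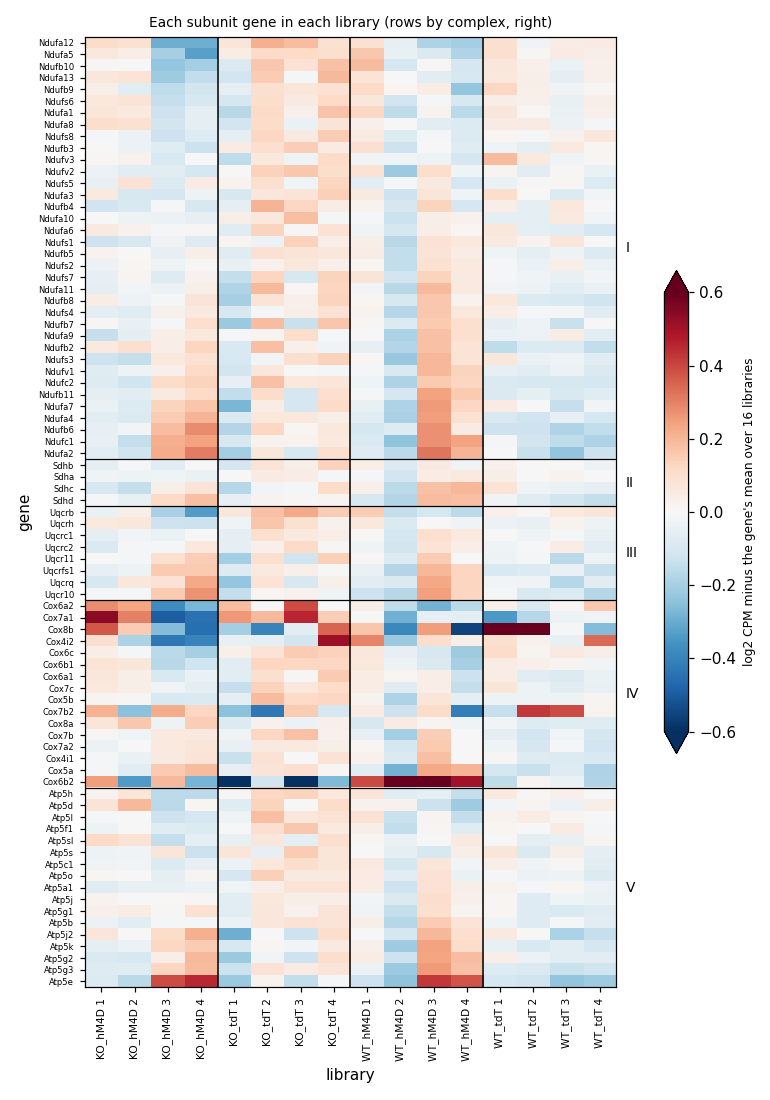
Log2 CPM of each of 81 subunit genes (rows) in each of 16 libraries (columns), as the difference from the gene's mean over all libraries; black lines part the groups and the complexes, and rows within a complex are sorted by the mean of KO_hM4D 3 and 4 and WT_hM4D 3 and 4. These 4 columns share their red and blue rows, such as Atp5e (44.8 to 47.1 CPM) and Ndufa12 (61.4 to 66.2 CPM), and KO_tdT 1 and WT_hM4D 2 are pale to blue over most rows.

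The comparison of KO_tdT with WT_tdT asks what the knockout does without the receptor. The edgeR quasi-likelihood test called 0 subunit genes (adjusted p under 0.05), against 8 of all genes or 0.0384%. The DESeq2 test also called 0, against 62 of the 20825 genes. Higher in KO_tdT at an unadjusted p under 0.05 were 2 members, against 3.92% of all genes, and lower were 0, against 4.77%. For the alternative fits given below, here and in the later comparisons, such shares of all genes were counted on the lower side only. The differences were small but mostly on one side: 71 of 81 members had a log2 change above 0, against 49.9% of all genes, and the median was 0.06, against -0.00 for all genes. By complex, the number above 0 was 33 of 36 in complex I, 3 of 4 in II, 8 of 8 in III, 12 of 16 in IV and 15 of 17 in V. Members share libraries, so 1 library can move them all at once, and these counts carry no test. The 2 members higher at an unadjusted p under 0.05 became 13 without KO_tdT 1 and 7 without WT_hM4D 2, were 0 without any 1 of KO_tdT 2, KO_tdT 3, WT_tdT 2 and WT_tdT 4, and numbered 1 to 4 without any other library. They were 8 without the 4 libraries that stood apart and 10 in a fit of these 2 groups alone. They were 0 without the libraries with Xist and Y-linked transcripts, where 1 member was lower and 69 lay above 0. With scaling by total counts alone they were also 0. The median was 0.09 without KO_tdT 1 and 0.05 without KO_tdT 2. Without the 3 libraries of highest thalamic marker level (KO_tdT 3, KO_tdT 4 and KO_hM4D 1) it was 0.03. In that fit 61 members lay above 0, and 0 were higher at an unadjusted p under 0.05. All 6 thalamic markers lay above 0 in this comparison, with a median log2 change of 2.09, and what part they have in the result was not tested.

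For 4 members the groups did not overlap, with KO_tdT above WT_tdT (background 2.05% of genes); for 0 members did they part in the other direction (2.04%). Cox7b, an X-linked small subunit of complex IV, had 109.1, 120.4, 124.9 and 112.7 CPM in KO_tdT and 106.4, 102.1, 108.8 and 103.1 CPM in WT_tdT. Its log2 change was 0.15 (SE 0.06, adjusted p = 0.514), the smallest adjusted p of the members here. The sets nearly touched, at 109.1 CPM in KO_tdT 1 and 108.8 CPM in WT_tdT 3. Ndufc2, an accessory subunit of the complex I membrane arm, had 50.1, 58.7, 54.3 and 54.5 CPM in KO_tdT and 48.9, 48.6, 48.5 and 48.2 CPM in WT_tdT, with a log2 change of 0.16 (SE 0.07, adjusted p = 0.551). Cox5a, a subunit of complex IV on the matrix side, had 60 to 66.5 CPM in KO_tdT and 54.5 to 58.7 CPM in WT_tdT. Cox7a1 had 1.01, 0.967, 1.16 and 0.936 CPM in KO_tdT and 0.664, 0.749, 0.826 and 0.832 CPM in WT_tdT, with a log2 change of 0.41 (SE 0.20, adjusted p = 0.587). Also among the 5 smallest p were Ndufb2 at 0.14 (SE 0.07, adjusted p = 0.587) and Ndufv2, which encodes an iron-sulphur subunit of the NADH-oxidising tip of complex I, at 0.12 (SE 0.06, adjusted p = 0.589); for both, the 2 groups overlapped.

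In WT_hM4D against WT_tdT, the comparison for the activated receptor in wild-type mice, 0 members were called by edgeR, against 18 genes or 0.0864%. DESeq2 called 1 member, Cox6b2, against 256 of the 20825 genes. At an unadjusted p under 0.05 there was 1 member higher, against 6.57% of genes, and 0 lower, against 4.48%. Members above 0 numbered 50 of 81, against 50.3% of genes, and the median log2 change was 0.03; without the 4 libraries that stood apart, which leaves 2 in each hM4D group, 25 of 81 were above 0 and the median was -0.02. Single libraries also decided these values: without WT_hM4D 2, 19 members were higher at an unadjusted p under 0.05 and 60 lay above 0 (median 0.06), and without WT_hM4D 3, 1 was higher and 39 lay above 0 (-0.00). Of complex III 7 of 8 were above 0, of complex V 12 of 17, of complex I 20 of 36, of complex IV 8 of 16 and of complex II 3 of 4.

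Cox6b2 was the member with the smallest p. It encodes the testis-enriched form of subunit 6b, which sits between the partners of the complex IV dimer on the intermembrane side, and lies at chr7:4751792-4753094 on the minus strand, with no other annotated exon overlapping its own. It is rare here, with 46 to 175 counts in a library. Cox6b2 had 0.702, 0.467, 0.677 and 0.487 CPM in KO_hM4D, 0.343, 0.548, 0.374 and 0.491 CPM in KO_tdT, 0.778, 0.959, 0.991 and 0.838 CPM in WT_hM4D, and 0.531, 0.598, 0.575 and 0.522 CPM in WT_tdT. Every WT_hM4D library lay above every library of the other 3 groups, and the next highest was KO_hM4D 1. The log2 change of WT_hM4D against WT_tdT was 0.68 (SE 0.17, 95% interval 0.32 to 1.04, adjusted p = 0.149 in edgeR). DESeq2 gave an adjusted p of 0.0152, and over the 28 alternatives run the adjusted p lay between 0.0152 and 1 and the log2 change between 0.62 and 0.74. Without the 4 libraries that stood apart it was 0.64 with an adjusted p of 1, in a fit with 2 WT_hM4D libraries. Its partner Cox6b1, the common isoform, had 181.7, 170.5, 164.2 and 151.9 CPM in WT_hM4D and 179.5, 177.6, 176 and 172.1 CPM in WT_tdT, and these groups overlapped. As a share of both per length, Cox6b2 made up 0.342 ± 0.0478% in WT_hM4D and 0.201 ± 0.0123% in WT_tdT (SD, n = 4 each).

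The promoter sequences of the pair are shown because they differ in the motifs searched. The 250 bases before each RefSeq start on GRCm38.p6 are read 5′ to 3′ on the gene's strand. In Cox6b1 the capitals mark the ETS motif, which reads CCGGAAG on the other strand. In Cox6b2 none of the 4 sets of letters was found, which says only that they are not in this window.
Cox6b2, chr7:4753095-4753344, minus strand: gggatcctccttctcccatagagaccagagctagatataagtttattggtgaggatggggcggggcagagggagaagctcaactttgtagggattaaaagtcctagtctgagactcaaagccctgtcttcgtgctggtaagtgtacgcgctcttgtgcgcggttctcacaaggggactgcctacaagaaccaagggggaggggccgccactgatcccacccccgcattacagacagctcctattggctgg
Cox6b1, chr7:30626115-30626364, minus strand: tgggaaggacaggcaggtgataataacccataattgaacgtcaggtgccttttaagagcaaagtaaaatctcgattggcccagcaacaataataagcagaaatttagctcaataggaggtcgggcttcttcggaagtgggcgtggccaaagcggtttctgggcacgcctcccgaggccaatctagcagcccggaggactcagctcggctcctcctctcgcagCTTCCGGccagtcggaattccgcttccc

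Beside Cox6b2, WT_hM4D lay above WT_tdT without overlap for Ndufb6 (background 3.64%) and below it for Ndufv3 (3.19%), both of complex I. Ndufb6 had 31.9, 32.5, 41.5 and 35.5 CPM in WT_hM4D and 31.5, 31.5, 30.3 and 31 CPM in WT_tdT. Its log2 change was 0.19 (SE 0.09, adjusted p = 0.459), and 0.05 without the libraries that stood apart. Ndufb11 at 0.15 (SE 0.08, adjusted p = 0.473), Atp5e at 0.31 (SE 0.15, adjusted p = 0.473) and Ndufv1, the NADH-binding subunit, at 0.12 (SE 0.06, adjusted p = 0.499) completed the 5 smallest p. Without those libraries the values were 0.02 for Ndufb11, -0.01 for Atp5e and 0.01 for Ndufv1, so the difference of each came with WT_hM4D 3 and 4. Ndufv3 had 52.1, 52, 51.9 and 49.4 CPM in WT_hM4D and 60.3, 55.1, 52.2 and 53.2 CPM in WT_tdT.

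In KO_hM4D against KO_tdT, the comparison for the activated receptor in the knockout, 0 members were called by edgeR, against 1 gene or 0.0048%. DESeq2 called 0, against 124 genes. At an unadjusted p under 0.05, 14 of 81 members (17.3%) were lower in KO_hM4D, against 5.59% of all genes, and 1 was higher, against 5.52%. In all, 54 members had a log2 change below 0 and 27 above (50.5% of all genes were above), with a median of -0.04. Below 0 were 26 of 36 in complex I, 3 of 4 in II, 4 of 8 in III, 10 of 16 in IV and 11 of 17 in V. The count of 14 depended on single libraries. It was 24 without KO_tdT 1, against 7.72% of all genes. It was 7 without any 1 of KO_hM4D 3, KO_hM4D 4, KO_tdT 2 and KO_tdT 3, against 3.57 to 6.22%. The count was 3 without the 4 libraries that stood apart (against 4.44% of all genes) and 5 without the 3 of highest thalamic marker level (3.47%). It was 9 without those holding Xist and Y-linked transcripts (3.95%), and 5 with the Xist level as a covariate (6.16%). The median stayed between -0.05 and -0.03 in these 4 fits. Without the 4 libraries that stood apart, 23 members lay above 0.

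The member with the smallest p was Uqcrb, a subunit of complex III near its ubiquinone site, at chr13:66900617-66905378 on the minus strand, where 50 bases of exon overlap an antisense gene. Uqcrb had 76.2, 80.1, 68.5 and 62.1 CPM in KO_hM4D, 82, 88.3, 91.5 and 86.9 CPM in KO_tdT, 86.9, 70.8, 72.7 and 70.2 CPM in WT_hM4D, and 79.9, 78.7, 81.8 and 82.2 CPM in WT_tdT. All KO_hM4D libraries lay below all KO_tdT libraries, with a log2 change of -0.28 (SE 0.08, 95% interval -0.44 to -0.12, adjusted p = 0.281). Its log2 change was -0.15 without the libraries that stood apart, where KO_hM4D 1 and 2 remain. In wild type the groups overlapped, through WT_hM4D 1.

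The groups parted in the same direction for 4 other members (5 in all, background 2.55%; higher, 0 members, background 2.33%). Ndufv2 had 106.8, 104.6, 104.7 and 101.8 CPM in KO_hM4D and 109.8, 120.4, 122.7 and 117.8 CPM in KO_tdT, with a log2 change of -0.17 (SE 0.06, adjusted p = 0.367) that was -0.15 without the libraries that stood apart. Ndufb3, of the complex I membrane arm, had 45.1, 44.1, 43 and 41.3 CPM in KO_hM4D and 46.8, 48.4, 50 and 46.8 CPM in KO_tdT, with a log2 change of -0.14 (SE 0.05, adjusted p = 0.364) that was -0.10 without those libraries. Sdha had 345.9 to 349.9 CPM in KO_hM4D and 354.3 to 367.8 CPM in KO_tdT. Atp5a1 had 854.2 to 876.1 CPM in KO_hM4D and 881 to 950.8 CPM in KO_tdT. For both Sdha and Atp5a1 the sets nearly touched. Cox6c at -0.18 (SE 0.06, adjusted p = 0.375) and Ndufs8, an iron-sulphur subunit on the way to ubiquinone, at -0.13 (SE 0.05, adjusted p = 0.387) completed the 5 smallest p, and for both the groups overlapped. Without the libraries that stood apart Cox6c was at -0.08 and Ndufs8 at -0.09. The groups differ in more than the virus: all 4 KO_hM4D libraries were of female type, while KO_tdT 1 and 2 were of male type, and the count with the Xist level as a covariate is the one given above.

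In KO_hM4D against WT_hM4D, the knockout under the activated receptor, 0 members were called by edgeR, against 4 genes or 0.0192%. DESeq2 called 0, against 83 genes. At an unadjusted p under 0.05, 0 members were higher, against 6% of genes, and 1 was lower, against 6.66%. Above 0 were 33 of 81 members (47.5% of genes), and the median log2 change was -0.01 for the members and for all genes. These values turned with the libraries. Without the 4 libraries that stood apart, 66 lay above 0 (median 0.04). At an unadjusted p under 0.05, 3 were higher there and 1 was lower, against 3.3% of genes lower. Without WT_hM4D 2, 18 lay above 0 (-0.05), with 1 higher and 7 lower (10% of genes lower). Without WT_hM4D 3, 51 lay above 0 (0.02). Without the libraries with Xist and Y-linked transcripts, 18 lay above 0 (-0.05), with 0 higher and 3 lower (6.52% of genes lower). In the fit of all 16 libraries the member lower was Cox6b2, at -0.61 (SE 0.17, 95% interval -0.97 to -0.25, adjusted p = 0.316). It was the only one whose groups did not overlap (background 3.37%), and higher without overlap were 0 members (background 2.73%). Without the 4 libraries that stood apart Cox6b2 was at -0.56 (adjusted p = 0.634). The next smallest p were those of Cox8a at 0.10 (SE 0.05, adjusted p = 0.403), Cox4i2 at -0.28 (SE 0.16, adjusted p = 0.481), Ndufs1, an iron-sulphur subunit of complex I, at -0.09 (SE 0.05, adjusted p = 0.504) and Atp5d, the delta subunit of the central stalk, at 0.10 (SE 0.07, adjusted p = 0.554). Without those 4 libraries Cox8a was at 0.15, Cox4i2 at -0.09, Ndufs1 at -0.04 and Atp5d at 0.12. Cox8a had 265.1, 282.3, 247.2 and 279.9 CPM in KO_hM4D and 235.7, 261.2, 254.9 and 248.2 CPM in WT_hM4D, so these groups overlapped. All 4 KO_hM4D libraries were of female type, while WT_hM4D 1 and 3 were of male type. With the Xist level as a covariate, 28 members lay above 0 (median -0.02). Above 0 were 6 of 6 cortical neuron markers (median 0.41), 1 of 15 striatal ones (-0.24) and 0 of 8 oligodendrocyte ones (-0.42). What part these differences have in the values was not tested.

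**Figure D4:**
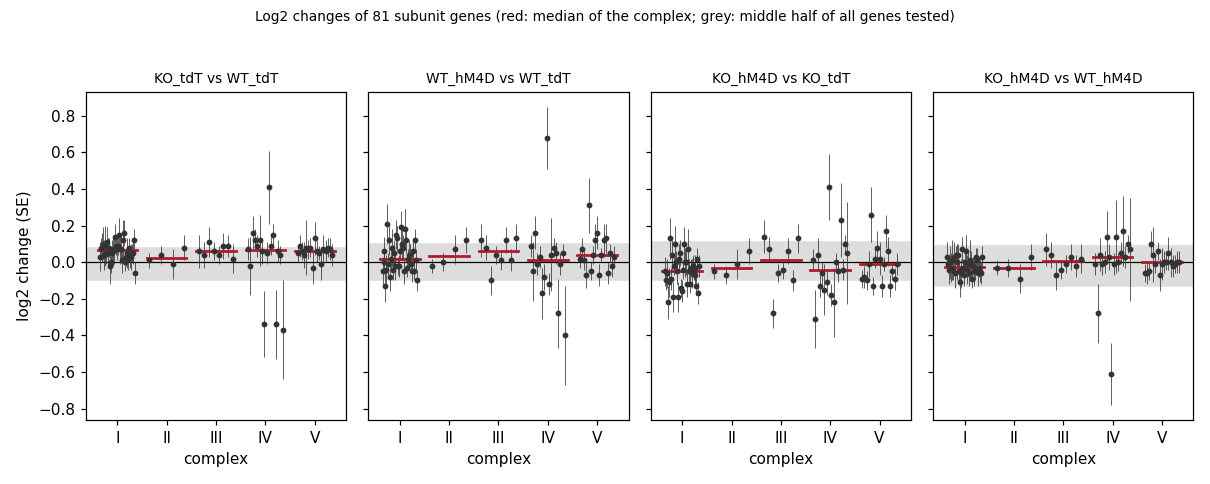
Log2 change (with SE) of each of 81 subunit genes in the 4 pairwise comparisons, by complex; red lines are the median of a complex and the grey band spans the quartiles of all 20825 genes tested. Most members lie in or near the grey band, with medians over all members of 0.06, 0.03, -0.04 and -0.01 from left to right, and Cox6b2 is the point at 0.68 in the second panel and -0.61 in the fourth.

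The interaction asks whether the receptor's effect differs between genotypes. By edgeR 0 members and 0 genes (0%) were called, and by DESeq2 0 members and 12 genes. At an unadjusted p under 0.05, 0 members were higher, against 3.28% of genes, and 1 was lower, against 3.49%. Here 69 of 81 members lay below 0 (48.8% of all genes lay above) and the median was -0.08, beside -0.00 for all genes. The interaction is the change in KO_hM4D against KO_tdT minus that in WT_hM4D against WT_tdT, whose medians were -0.04 and 0.03. The median was -0.12 without KO_tdT 1, -0.04 without WT_hM4D 3, and -0.03 without the libraries that stood apart, with 25 members above 0. The 1 member lower at an unadjusted p under 0.05 became 7 without KO_tdT 1, against 4.87% of genes, and 10 without WT_hM4D 2, against 6%. It became 0 without the libraries that stood apart, against 2.12%. The smallest p was that of Ndufv2, at -0.18 (SE 0.09, adjusted p = 0.734). Cox7b2 followed at 0.51 (SE 0.27, adjusted p = 0.748) on 25 to 54 counts, then Ndufb3 at -0.13 (SE 0.07, adjusted p = 0.750), Atp5b at -0.15 (SE 0.09, adjusted p = 0.750) and Uqcrb at -0.18 (SE 0.11, adjusted p = 0.756).

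Averaging over the other factor used all 16 libraries. For KO against WT over both viruses, 0 members were called by edgeR, against 16 genes or 0.0768%. DESeq2 called 1, against 223 genes. With no adjustment, p was under 0.05 for 2 members that were higher, against 6.07% of genes, and 1 that was lower, against 7.94%. The median log2 change was 0.03, with 64 of 81 above 0 (48.5% of genes). The knockout and wild-type libraries also differed in their mix of female and male type. With the Xist level as a covariate, 57 members lay above 0 (median 0.02). Above 0 were 39 without the libraries with Xist and Y-linked transcripts (median -0.00, with 0 higher at that p), 47 without WT_hM4D 2 (0.01, with 1 higher), 49 without the 3 libraries of highest thalamic marker level (0.01, with 0 higher) and 72 without the 4 libraries that stood apart (0.05, with 11 higher). The 2 members higher became 5 without KO_tdT 1 and 6 without WT_hM4D 3, were 0 without any 1 of KO_tdT 2, KO_tdT 3, WT_hM4D 1, WT_tdT 1, WT_tdT 2 and WT_tdT 4, and numbered 1 to 4 without any other library. Cox6b2 had the smallest p, at -0.47 (SE 0.12, adjusted p = 0.209 in edgeR and 0.0338 in DESeq2; 0.0338 to 0.397 over 27 alternatives), and at -0.45 without the libraries that stood apart. After it came Cox7b at 0.10 (SE 0.04, adjusted p = 0.336), Ndufb2 at 0.10 (SE 0.05, adjusted p = 0.352), Cox8a at 0.07 (SE 0.04, adjusted p = 0.361) and Cox7a1 at 0.27 (SE 0.14, adjusted p = 0.385).

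For hM4D against tdT over both genotypes, 0 members were called by edgeR, against 6 genes or 0.0288%. DESeq2 called 3, against 674 of the 20825 genes. With no adjustment, p was under 0.05 for 4 members that were higher, against 8% of genes, and 9 that were lower, against 7.27%. The median was -0.01, with 34 of 81 above 0 (51.2% of genes). Without the 4 libraries that stood apart, 1 was higher and 3 were lower at that p, and 19 of 81 lay above 0 (median -0.03). Without WT_hM4D 2, 18 were higher and 7 lower (median 0.01), and without KO_tdT 1, 2 were higher and 17 lower (-0.04). Of all genes, 4.24%, 6.93% and 8.64% were lower at that p in these fits, in that order. Over the other single libraries left out, 2 to 8 were higher and 5 to 13 lower. Cox6b2 had a log2 change of 0.55 (SE 0.12, 95% interval 0.29 to 0.80, adjusted p = 0.0633 in edgeR and 0.00279 in DESeq2; 0.00279 to 0.453 over 27 alternatives). It was called by edgeR only without KO_tdT 2, at 0.61 (adjusted p = 0.0327), a fit that called 284 of 21060 genes. Without the libraries that stood apart it was 0.53 (adjusted p = 0.417). Within the knockout alone, KO_hM4D against KO_tdT, it was 0.41 (SE 0.18, adjusted p = 0.422) and these groups overlapped. Uqcrb stood at -0.19 (SE 0.05, adjusted p = 0.119 in edgeR and 0.0346 in DESeq2; 0.0346 to 0.628 over 27 alternatives), and at -0.09 without the libraries that stood apart.

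Cox6c, a small nuclear subunit of complex IV at chr15:35925886-35938246 on the minus strand, with 250 bases of exon overlapped by Vps13b on the other strand, had 180.2, 174.2, 156.7 and 152.4 CPM in KO_hM4D and 178.6, 185.1, 194.4 and 192.8 CPM in KO_tdT. It had 183.7, 169, 164 and 151.2 CPM in WT_hM4D and 188.8, 177.1, 182 and 179.4 CPM in WT_tdT. Replicates 3 and 4 of both hM4D groups were the 4 lowest of all. Over both genotypes its log2 change was -0.15 (SE 0.04, adjusted p = 0.131 in edgeR and 0.0401 in DESeq2; 0.0401 to 0.665 over 27 alternatives), and -0.06 without those 4 libraries. Ndufa12 at -0.17 (SE 0.06, adjusted p = 0.212) was -0.03 without them, and Atp5e at 0.29 (SE 0.11, adjusted p = 0.222) was -0.02. In a test for any difference among the 4 groups, 0 members were called by edgeR, against 36 genes or 0.173%. DESeq2 called 1, against 995 of the 20825 genes. In edgeR 3 members had an unadjusted p under 0.05, against 16% of genes. The smallest adjusted p were 0.0599 for Cox6b2, 0.207 for Uqcrb, 0.268 for Cox6c, 0.319 for Cox8a and 0.326 for Atp5f1, the b subunit of the ATP synthase peripheral stalk. For Cox6b2 the adjusted p was 4.18e-05 in DESeq2, and 0.355 without the libraries that stood apart.

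**Figure D5:**
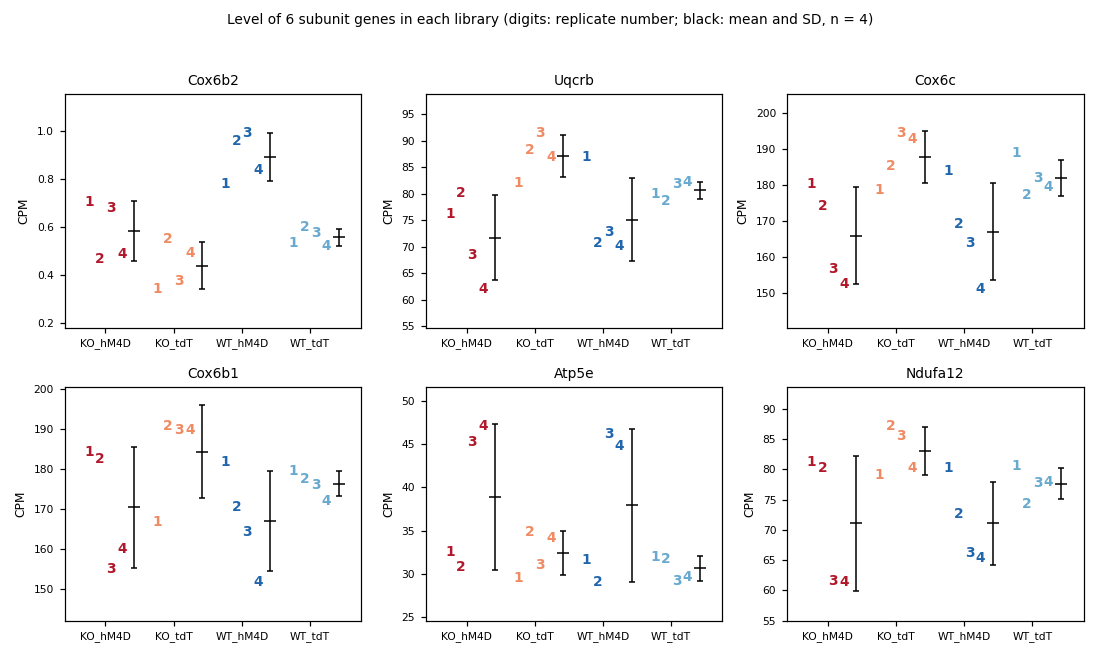
CPM of 6 subunit genes in each of 16 libraries; a digit is the replicate number at its value, and black marks give mean and SD over the 4 libraries of a group (the axes do not start at 0). Cox6b2 is highest in the 4 WT_hM4D libraries (0.778 to 0.991 CPM), while for Cox6c, Cox6b1, Atp5e and Ndufa12 replicates 3 and 4 of both hM4D groups lie apart from all other libraries.

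The data also bound how far the members could differ. The whole 95% interval of the change lay within 1.2-fold either way for 63 of 81 members in KO_tdT against WT_tdT, beside 37.7% of all genes, for 54 in WT_hM4D against WT_tdT (35.1%), for 58 in KO_hM4D against KO_tdT (34.9%) and for 73 in KO_hM4D against WT_hM4D (34.2%). It did so for 33 in the interaction (20.3%), for 74 in KO against WT averaged (48.9%) and for 68 in hM4D against tdT averaged (49.2%). The median SE of a member's log2 change was 0.07 in the pairwise comparisons, beside 0.12 for all genes. These backgrounds are not matched in level: 75 of 81 members lie at 10 CPM or more, but only 9580 of the 20825 genes. At that level the median within-group coefficient of variation was 6.17% for members and 6.68% for genes. For the members inside that bound a larger change lies outside the interval, and smaller ones are not told from none.

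Of the lists of other genes of the pathway used here, no gene was called by edgeR in any comparison. In KO_tdT against WT_tdT, 60 of 77 mitochondrial ribosomal proteins, 14 of 17 enzymes of the tricarboxylic acid cycle, 31 of 46 assembly factors and 7 of 8 subunits named outside the rule lay above 0, with medians of 0.05, 0.06, 0.03 and 0.07. Of 81 cytosolic ribosomal proteins, which are not of the pathway, 62 did so too, with a median of 0.03. In KO_hM4D against KO_tdT the numbers above 0 were 28 of 77 (median -0.03), 1 of 17 (-0.05), 18 of 46 (-0.02), 2 of 8 (-0.05) and, for the cytosolic ribosome, 26 of 81 (-0.04). In WT_hM4D against WT_tdT they were 45 of 77 (0.02), 7 of 17 (-0.01), 30 of 46 (0.02), 2 of 8 (-0.03) and 66 of 81 (0.10). Without the 4 libraries that stood apart, the numbers in KO_hM4D against KO_tdT were 31 of 77 (-0.03), 5 of 17 (-0.04), 18 of 46 (-0.02), 3 of 8 (-0.02) and 9 of 81 (-0.06), and in WT_hM4D against WT_tdT 35 of 77 (-0.00), 2 of 17 (-0.04), 14 of 46 (-0.03), 1 of 8 (-0.02) and 77 of 81 (0.05). With no adjustment, p was under 0.05 in KO_hM4D against KO_tdT for 14, 2, 2, 1 and 11 genes that were lower, in list order. Higher were 1, 0, 1, 0 and 0, and of all genes 5.59% were lower and 5.52% higher. Without the libraries that stood apart, 8, 0, 1, 0 and 3 were lower. In the interaction, 18 of 77 (-0.05), 4 of 17 (-0.03), 19 of 46 (-0.02) and 1 of 8 (-0.06) lay above 0. For the cytosolic ribosome it was 1 of 81 (-0.16). Of 16 regulators of mitochondrial biogenesis, 11 lay above 0 in KO_tdT against WT_tdT (median 0.04) and 9 in KO_hM4D against KO_tdT (0.05). In the latter it was 12 (0.08) without the libraries that stood apart.

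The 13 mitochondrially encoded subunits are given beside the nuclear ones, with no test of the difference. In KO_hM4D against KO_tdT 0 of 13 lay above 0, with a median log2 change of -0.28 and 5 lower at an unadjusted p under 0.05. In WT_hM4D against WT_tdT 0 of 13 lay above 0 either, with a median of -0.21, where the nuclear members had 0.03. Without the 4 libraries that stood apart these values were 4 of 13 above 0 and -0.05 in KO_hM4D against KO_tdT, with 0 lower at an unadjusted p under 0.05, and 7 of 13 and 0.00 in WT_hM4D against WT_tdT. In KO_tdT against WT_tdT 7 of 13 lay above 0, with a median of 0.02. Their mean log2 CPM ranged from 6.72 to 7.32 in KO_hM4D, 7.16 to 7.36 in KO_tdT, 6.90 to 7.44 in WT_hM4D and 7.22 to 7.38 in WT_tdT, and the 4 lowest were the libraries that stood apart. What sets these libraries apart was not tested.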

How the data were processed

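The authors deposited raw read counts per gene, as whole numbers, for 48795 genes in 16 libraries made with a stranded total RNA kit after ribosomal RNA removal, per the labels' protocols. Per the submitters' processing notes, bcl2fastq 2.17, STAR and HTSeq were used with the builds GRCm38 and mm10; versions of the last 2, the gene annotation and the strand setting: not given in the sources used here. All 82 members matched GENCODE M21 in chromosome and strand. Exons of 25 overlap an antisense gene and of 5 another gene on the same strand, and reads shared with processed pseudogenes could not be judged, so levels of such genes are uncertain.

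edgeR 4.0.16 (R 4.3.3) was run on the counts: filterByExpr by group, TMM factors, 1 quasi-likelihood fit of 4 groups over the 16 libraries (common dispersion 0.0162, 12 residual degrees of freedom), two-sided F tests, and Benjamini-Hochberg adjustment over 20825 genes, with 0.05 as the threshold of a call. Adjusted p are edgeR's unless DESeq2 1.42.0 is named. CPM carry TMM factors; log2 CPM use a prior count of 2, and CPM per kb use the union of exons. The fit was tested on simulated counts. The members and lists were chosen with earlier results of these data known. In each comparison the called members, or the 5 of smallest p where fewer were called, were named, with isoform pairs, the extremes per kb and core subunits; non-overlapping members, those of libraries that stood apart and promoter examples were named after their values were seen. Alternatives were other scalings, no low-count filter, DESeq2, a replicate block, leaving out each library, and fits without libraries that stand apart. No 2 libraries of a group agreed within sampling noise (24 pairs, chi-square over degrees of freedom of 13.4 to 151). The closest pairs were KO_hM4D 3 and 4 (13.4), WT_tdT 2 and 4 (17.7) and WT_hM4D 3 and 4 (24.5). A longer form of the NRF1 letters was searched earlier, with the shorter form chosen after its matches were seen; only the shorter is reported.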

Additional observations from a re-analysis of the deposited data

Results flagged for a closer look

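In groups of 4 libraries, 12 of 184 sets of values held a library far from the other 3, by the ratio of its gap to the whole range (above Dixon's critical value); chance alone marks about 1 group in 20. KO_tdT 1 was low in 6 of them: the sum of all members (8795.2 CPM, the others 9574 to 9694.5; ratio 0.866), of complex V (3284, the others 3551.1 to 3571.2; 0.93) and of complex II (565, the others 595.7 to 599.9; 0.88), and Cox6b1 (166.9, the others 189.6 to 190.7; 0.954), Atp5b (1084.9, the others 1162 to 1177.8; 0.8293) and Ndufb9 (136.7, the others 149.5 to 152.2; 0.8295). WT_tdT 1 was high for Cox8a (249.5 CPM, the others 238.9 to 240.3; 0.871) and Cox4i1 (364.6, the others 339.9 to 343.1; 0.869). WT_hM4D 1 was high for Uqcrb (86.9 CPM, the others 70.2 to 72.7; 0.851). KO_tdT 4 was high for Cox4i2 (2.02 CPM, the others 1.31 to 1.37; 0.919), WT_tdT 3 was low for Uqcr11 (84 CPM, the others 92.1 to 93.1; 0.893), and KO_hM4D 4 was high for the complex V sum (3382.2 CPM, the others 3320.6 to 3329.1; 0.862).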

How the results depend on the processing

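The DESeq2 test called members where edgeR called 0, and it called more genes in all. It called 1 in WT_hM4D against WT_tdT (Cox6b2, against 256 of 20825 genes) and 1 in KO against WT averaged (Cox6b2, 223 genes). It called 3 in hM4D against tdT averaged (Cox6b2, Uqcrb and Cox6c, 674 genes) and 1 among any of the 4 groups (Cox6b2, 995 genes). The cause was not tested. Leaving out 1 library in turn gave 0 to 1 members called in hM4D against tdT averaged and among any of the 4 groups. The 1 was Cox6b2 without KO_tdT 2, and 0 were called in the other 6 tests. Without KO_tdT 2, edgeR called 284 of 21060 genes in hM4D against tdT averaged, in place of 6. Among any of the 4 groups it called 84, in place of 36. Replicate numbers did not pair the libraries (same-numbered libraries correlated at -0.22 to 0.29 in their deviations, and 3 of 16 correlated best with their own number), and with the replicate block 0 members were called in each test. This check matches equal numbers between groups, so it cannot show a block made of replicates 3 and 4 of the hM4D groups alone. Without KO_hM4D 3 and 4 and WT_hM4D 3 and 4, an alternative added after the data were seen, the log2 change of Atp5e was reversed, at -0.01 in WT_hM4D against WT_tdT and -0.02 in hM4D against tdT averaged; fewer libraries are left. Without KO_tdT 1 and WT_hM4D 2, also added later, the median of the interaction was -0.15. At an unadjusted p under 0.05, 22 members were higher in KO_tdT against WT_tdT and 24 higher in WT_hM4D against WT_tdT. The shares of all genes higher there were not counted. In the interaction 27 members were lower, against 7.4% of genes. In each of these comparisons 0 members were called. With the mt- genes left out of the library sizes, mean summed CPM was 3030, 657, 926, 1927 and 3833 for complexes I to V, in place of 2683, 582, 820, 1706 and 3395, since fewer counts make up the total. Of the other alternatives, 1621 values kept their side of the threshold and their direction, or moved by less than the spread. For medians that spread was 0.06, no smaller than most of the medians themselves. A median could therefore change sign and still be counted, as in WT_hM4D against WT_tdT (0.03, and -0.02 without the 4 libraries that stood apart). Genes that were not called in either fit were counted too, so this number is no measure of stability. At 46 to 175 counts for Cox6b2 and 25 to 54 for Cox7b2, counting error adds to the spread.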
